A study of Mus musculus with 24 samples.

Results

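The genes described here carry the symbols Mrpl (large subunit) and Mrps (small subunit), given to protein subunits of the mitochondrial ribosome. Subunits are counted by symbol. By position, Mrps30 and Mrps18a sit in the large subunit, and Mrps36 is better known from another complex. The genes were chosen by symbol alone. Of 82 rows of the count table whose symbol began with Mrpl or Mrps and a digit, 5 pseudogene rows marked -ps were left out. The remaining 77 genes, 48 Mrpl and 29 Mrps, stand among 48526 genes in the table. Of the 77, 76 passed edgeR's default filter on low counts and were among the 15808 genes tested. The other was Mrpl53, which had 0 counts in all 24 libraries. Per the GENCODE M21 annotation, 88.0% of the Mrpl53 exon bases lie under Gm42688 on the same strand and 1.9% under Ccdc142os on the opposite strand. One gene of the family, the release factor-like Mrpl58, is named Ict1 in the table and so fell outside the rule.

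The mitochondrial ribosome translates the messenger RNAs of the mitochondrial genome, which encode subunits of the respiratory chain complexes and of ATP synthase. Its ribosomal RNAs, mt-Rnr1 and mt-Rnr2, come from the mitochondrial genome, whereas all of its proteins are encoded in the nucleus, made in the cytosol and imported. Some subunits have bacterial counterparts and others are found only in mitochondria. The renal cortex is rich in proximal tubule cells, which have many mitochondria and depend on oxidative metabolism for reabsorption.

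The 24 libraries came from renal cortex of as many C57BL/6 mice, 6 per group, to compare diabetes and an oral inhibitor of the complement receptor C5aR1. Diabetes was induced at 6 weeks of age by 5 daily intraperitoneal injections of streptozotocin at 55 mg/kg, a toxin of pancreatic beta cells. Mice of the non-diabetic groups were injected with sodium citrate instead. Within each, one group drank plain water (the vehicle) and the other drank water with PMX-53, a cyclic peptide inhibitor of C5aR1, at 2 mg/kg, and all were followed for 24 weeks. The whole tissue was sequenced, so fewer cells of a type and less RNA per cell cannot be told apart. The labels do not say which animals shared a litter or a day of extraction, and a p-value here reflects only how far these samples spread.

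Libraries held 10964992 to 22000895 counts, and the 77 genes together took between 0.148% and 0.180% of them. Levels are given as normalized CPM, counts per 1e6 counts of the library after TMM scaling, which centres the fold changes of most genes near 0. The 6 diabetic vehicle libraries stood apart from the other 18. Nnt, the nicotinamide nucleotide transhydrogenase gene, which is altered in some C57BL/6 substrains, ranged from 242 to 272 CPM in them. It ranged from 101 to 121 CPM in the other 3 groups. A trait of that group of mice therefore cannot be told apart from diabetes on vehicle, or from the action of PMX-53 in diabetic mice. The share of counts from mitochondrially encoded genes was 29.5% ± 2.14 (SD, n = 6) in diabetic vehicle and 22.6% ± 1.65 in non-diabetic vehicle libraries. That difference had an exact two-sided permutation p of 0.00217, the smallest the design allows (adjusted p = 0.0173 over 16 tests of library properties). Much of the share was mitochondrial ribosomal RNA. All ribosomal RNA genes took 28.1% ± 1.89 and 22.2% ± 1.81 of counts in the same order (same test, adjusted p = 0.0173). Among counts outside ribosomal RNA genes, the mitochondrially encoded share was 6.53% ± 0.45 and 4.86% ± 0.63, which was not tested. Library totals averaged 18720000 counts in diabetic vehicle and 14890000 in both non-diabetic vehicle and diabetic PMX-53 libraries (permutation test, adjusted p = 0.0693 for each). The slope of log2 level on log2 gene length was -0.0124 ± 0.0144 in diabetic vehicle and 0.0149 ± 0.0150 in diabetic PMX-53 libraries (same test, adjusted p = 0.0577). The 9 proximal tubule markers examined were all counted and summed to between 14388 and 21969 CPM over the 24 libraries.

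Promoter stretches of 4 genes are shown because they stand for the call with the lowest adjusted p, another rise, a fall and the single call between PMX-53-treated groups, with and without the motifs searched. Each holds the 150 bases just before the RefSeq transcription start on GRCm38.p6, written 5′ to 3′ on the gene's strand. Capitals mark 7-base cores of motifs bound by regulators of nuclear mitochondrial genes. The cores searched, on both strands, were GCATGCG for NRF1, CCGGAAG for ETS factors such as GABPA, and AAGATGG for YY1.
Mrpl30 (chr1:37890327-37890476, plus strand): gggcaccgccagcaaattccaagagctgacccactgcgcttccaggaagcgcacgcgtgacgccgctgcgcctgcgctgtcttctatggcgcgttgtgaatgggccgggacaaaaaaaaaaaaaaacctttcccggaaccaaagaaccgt
Mrpl27 (chr11:94653641-94653790, plus strand): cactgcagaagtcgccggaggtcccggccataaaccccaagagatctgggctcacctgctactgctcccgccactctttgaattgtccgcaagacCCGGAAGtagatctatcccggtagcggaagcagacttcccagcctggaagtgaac
Mrpl3 (chr9:105053118-105053267, plus strand): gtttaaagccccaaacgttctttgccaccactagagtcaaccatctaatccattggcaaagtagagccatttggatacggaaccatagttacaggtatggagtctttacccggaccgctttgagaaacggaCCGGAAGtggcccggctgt
Mrpl22 (chr11:58171514-58171663, plus strand): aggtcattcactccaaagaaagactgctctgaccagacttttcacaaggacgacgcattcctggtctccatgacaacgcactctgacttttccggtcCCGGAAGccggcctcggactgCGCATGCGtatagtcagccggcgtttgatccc

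The Mrpl30 stretch held none of the cores, Mrpl27 and Mrpl3 each held an ETS core, and Mrpl22 held an ETS core and 2 overlapping NRF1 cores, one on each strand. RefSeq promoter windows, from 250 bases before to 50 after the start, were found for 68 of the 77 genes, as 74 windows. An ETS core lay in 25 of the 74 windows (33.8%), against 8.86% of all 32851 windows in the table. An NRF1 core lay in 8 (10.8%), against 3.58% of all windows, and a YY1 core in 13 (17.6%), against 6.34%. Among windows of genes later called higher with diabetes on vehicle, 6 of 19 held an ETS core, as did 2 of 7 of genes called lower and 16 of 47 of genes not called. In the same order the YY1 core lay in 4 of 19, 3 of 7 and 6 of 47 windows, and the NRF1 core in 2 of 19, 0 of 7 and 6 of 47. These shares rest on few windows and were not tested against each other. A match describes letters in a window and not a site.

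Their position in the genome was also of a kind. The 77 genes lie on 17 chromosomes, and 33 of them (42.9%) start within 1000 bases of a protein-coding gene on the opposite strand, head to head or overlapping at the 5′ ends. The same held for 10.8% of the 21683 protein-coding genes of the table. One such pair joins both subunits, Mrps11 and Mrpl46. Exon bases were shared with another gene by 32 of the 77, and the sources used here do not give the counting tool or whether it used strand.

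Within non-diabetic vehicle mice the genes were expressed at moderate and steady levels. Per kilobase of each gene's longest annotated transcript, protein-coding where there was one, levels ranged 24.9-fold among the 76 counted genes. They ran from 65.1 ± 4.81 CPM per kilobase for Mrpl12 to 2.61 ± 0.190 for Mrps25 (SD, n = 6). Exon bases over all transcripts can be far more, 3682 against 666 for Mrpl42, so the order depends on the length used. Mrpl12, a stalk protein that recruits translation factors, was followed by Mrpl42 (49.6 ± 5.12), Mrps21 (40.6 ± 3.95) and Mrpl24 (35.0 ± 2.40). At the low end above Mrps25 stood Mrpl19 (2.77 ± 0.173), Mrpl47 (3.34 ± 0.272) and Mrpl23 (3.38 ± 0.721). In this order, 66 of 75 neighbouring genes were closer than the larger of their SDs. Mrps25 has 6576 annotated exon bases over all transcripts, and Nr2c2 shares 69.8% of them on the opposite strand. The coefficient of variation over the 6 libraries had a median of 7.37% and ran from 3.42% to 21.3%.

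The summed level of the large subunit overlapped between all groups. It ran from 1046 through a median of 1096 to 1132 CPM in non-diabetic vehicle libraries and from 1073 through 1123 to 1176 CPM in diabetic vehicle libraries. With PMX-53 it ran from 1083 to 1124 CPM in non-diabetic and from 1002 to 1144 CPM in diabetic mice. The summed level of the small subunit did separate the vehicle groups: 502, 520 and 530 CPM (lowest, median and highest) in non-diabetic against 546, 552 and 570 CPM in diabetic mice. Diabetic mice on PMX-53 ran from 499 through 518 to 553 CPM, with 2 of 6 libraries in the diabetic vehicle range. This separation depended on the scaling, and with library totals alone the 2 vehicle groups ran from 490 to 575 CPM and from 492 to 562 CPM.

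**Figure D1:**
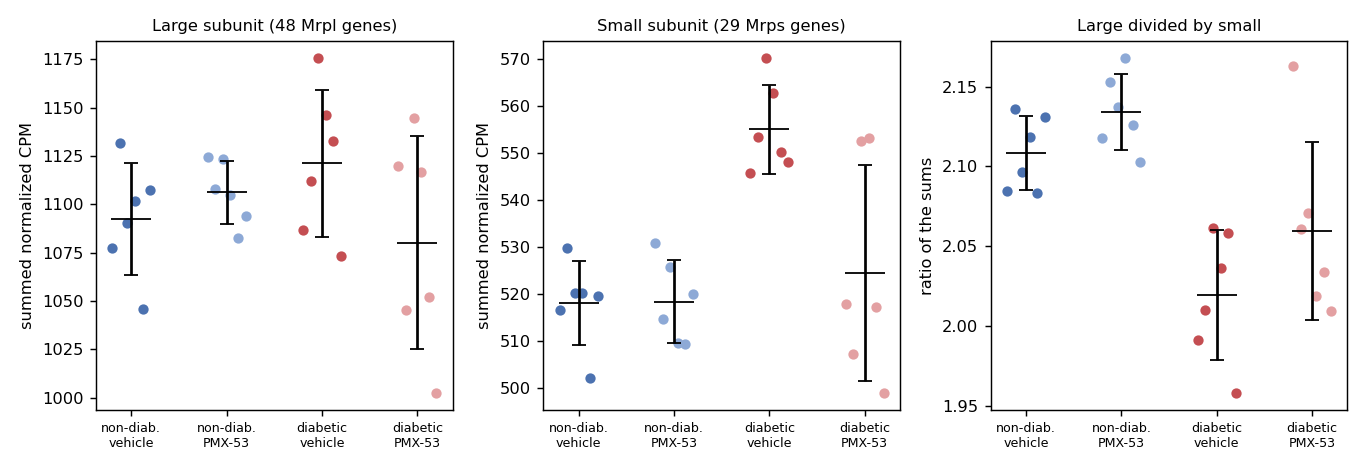
Summed normalized CPM (TMM scaling) of the 48 Mrpl genes, of the 29 Mrps genes, and their ratio, in each of 24 libraries by group; points are libraries, and bars are the mean and SD of 6. The vertical axes do not start at 0. Small-subunit sums of diabetic vehicle libraries (546 to 570 CPM) lie above those of non-diabetic vehicle libraries (502 to 530 CPM), which no longer holds with scaling by library totals alone.

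The ratio of the large to the small sum does not depend on scaling. It was 2.08 to 2.14 in non-diabetic vehicle, 2.10 to 2.17 in non-diabetic PMX-53, 1.96 to 2.06 in diabetic vehicle and 2.01 to 2.16 in diabetic PMX-53 libraries. The vehicle groups did not overlap, and they did not without Mrps6, at 2.19 to 2.23 against 2.09 to 2.17. With Mrps30 and Mrps18a counted as large and Mrps36 left out, they ran from 2.38 to 2.45 and from 2.24 to 2.36. Over the genes that share no exon bases with another gene, the ratio was 1.83 to 1.93 and 1.86 to 1.93, and the groups overlapped.

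The first comparison asked what diabetes changed in mice on vehicle. Of the 76 genes tested, 27 (35.5%) were called at an adjusted p under 0.05 (edgeR's quasi-likelihood test, Benjamini-Hochberg), of which 20 were higher and 7 lower in diabetic mice. The background was 40.3% of all 15808 genes, with 20.4% higher and 19.9% lower. So the family was called no more often than the genome at large, and most of its calls were higher. In the large subunit 12 rose and 4 fell of 47, with a median log2 fold change of 0.07, and in the small subunit 8 rose and 3 fell of 29, with a median of 0.10. The median over all 76 was 0.09 and that of all genes was -0.0014. At an unadjusted p under 0.05 there were 29 of 76, and 48.3% of all genes. With scaling by library totals alone the split turned to 4 higher and 11 lower and the share of higher calls among all genes from 50.7% to 31.2%. That scaling moved the median of all genes to -0.09. Relative to the median of all genes, the 76 stood at 0.09 under both scalings, and all 27 calls kept their sign. A change of scaling shifts all genes nearly alike, here by less than any called change, so neither result could well differ.

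Among the genes that rose, Mrpl30 had the lowest adjusted p. Mrpl30 (chr1:37890477-37898535) encodes a large-subunit protein with a bacterial L30 counterpart and shares no exon bases with another gene. Its levels were 31.0, 32.4 and 34.4 CPM (lowest, median, highest) in non-diabetic vehicle and 38.6, 44.95 and 49.6 CPM in diabetic vehicle libraries, so the groups did not overlap. The log2 fold change was 0.45 ± 0.06 (SE) with an adjusted p of 1.31e-06. Its head-to-head neighbour Mitd1, whose start lies 66 bases away, had a log2 fold change of 0.07 ± 0.11 (adjusted p = 0.667).

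Groups that did not overlap were also found for Mrpl11, Mrpl35, Mrps9, Mrps24 and Mrps35, all of them higher in diabetic mice. That makes 6 of 76 above and 0 below, where 7.86% and 7.02% of all genes did so (14.9% in either direction). Mrps9 (chr1:42851233-42905683), whose bacterial counterpart contacts the transfer RNA in the P site, ran from 22.1 through 24.2 to 25.3 CPM on non-diabetic vehicle. In diabetic vehicle libraries it ran from 27.5 through 28.6 to 32.3 CPM, a log2 fold change of 0.27 ± 0.05 (adjusted p = 0.000253). Mrpl35 (chr6:71812997-71826969) went from 16.7, 19.0 and 20.6 CPM to 20.8, 22.5 and 25.8 CPM, which is 0.25 ± 0.07 (adjusted p = 0.00476). The lowest diabetic library was only just above the highest non-diabetic one. Mrpl11, at the base of the stalk, changed by 0.27, Mrps24 by 0.25 and Mrps35 by 0.19. Mrps24 shares 15.4% of its exon bases with a same-strand gene, Urgcp, and the other 5 share none.

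The rise by fold was largest for Mrps6 (chr16:92058270-92112227), a small-subunit protein with a bacterial S6 counterpart. It ran from 19.98 through 22.2 to 27.1 CPM in non-diabetic and from 25.3 through 32.6 to 44.7 CPM in diabetic vehicle libraries, a log2 fold change of 0.54 ± 0.14 (adjusted p = 0.00309). The groups overlapped, and the spread among diabetic libraries was wide. Mrps6 shares 19.9% of its exon bases on the same strand with other genes, among them Slc5a3, the myo-inositol transporter gene that responds to osmotic load. Slc5a3 was far more abundant, at 286 ± 75.5 CPM and 367 ± 103 CPM in the same groups, and its own change was 0.36 ± 0.20 (adjusted p = 0.165). Its part in the Mrps6 counts was not tested. Mrps18c (0.40 ± 0.08, adjusted p = 0.000479) likewise shares 23.2% of its exon bases with a same-strand gene, Gm43511.

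Mrpl20 and Mrpl42 rose without any exon overlap. Mrpl20 (chr4:155802878-155809975), a counterpart of a bacterial protein needed early in assembly of the large subunit, ran from 20.4 through 22.7 to 24.0 CPM and from 23.3 through 27.7 to 30.2 CPM. The log2 fold change was 0.29 ± 0.06 (adjusted p = 0.000283), with 1 diabetic library inside the non-diabetic range. Mrpl42, a subunit found only in mitochondria, changed by 0.26 ± 0.08 (adjusted p = 0.0104). The other genes called higher were Mrps28, Mrpl33, Mrpl54, Mrpl27, Mrpl55, Mrps18b, Mrpl57, Mrpl52, Mrps17 and Mrpl2, at log2 fold changes between 0.21 and 0.28.

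The genes that fell were 7. Mrpl36, a short counterpart of bacterial L36, was lowest at -0.32 ± 0.09 (adjusted p = 0.00415), and it went from 10.54, 12.5 and 15.1 CPM to 9.26, 9.59 and 13.01 CPM. Only 1 diabetic library, replicate 4, reached the non-diabetic range. Mrpl50 fell from 43.1, 49.5 and 52.8 CPM to 37.0, 40.3 and 47.5 CPM (-0.24 ± 0.06, adjusted p = 0.00170). Mrps2, with a bacterial S2 counterpart, fell from 24.7, 26.6 and 29.3 CPM to 20.01, 22.2 and 25.6 CPM (-0.24 ± 0.07, adjusted p = 0.00484). Mrps12, the counterpart of the bacterial decoding-centre protein S12, changed by -0.23, Mrpl3, whose counterpart lies near the peptidyl transferase centre, by -0.20, Mrps7 by -0.17 and Mrpl44, a protein with a fold like RNase III, by -0.16. In all 7 the groups overlapped.

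Mrpl44 shares 7.7% of its exon bases on the opposite strand with Wdfy1, which was at 30.2 ± 1.55 CPM in non-diabetic and 74.2 ± 5.86 CPM in diabetic vehicle libraries. Wdfy1 moved the other way and, like Nnt, set the diabetic vehicle libraries apart. Neighbours of called genes took either sign. Ndufs6, head to head with Mrpl36, rose by 0.29 ± 0.06 while Mrpl36 fell. Apba3 and Klc4 fell by 0.26 and 0.28 on the log2 scale beside Mrpl54 and Mrpl2, which rose by 0.26 and 0.21. Gga3 fell by 0.29 beside Mrps7, which fell by 0.17 and shares 11.9% of its exon bases with Gga3 and Mif4gd on the opposite strand.

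**Figure D2:**
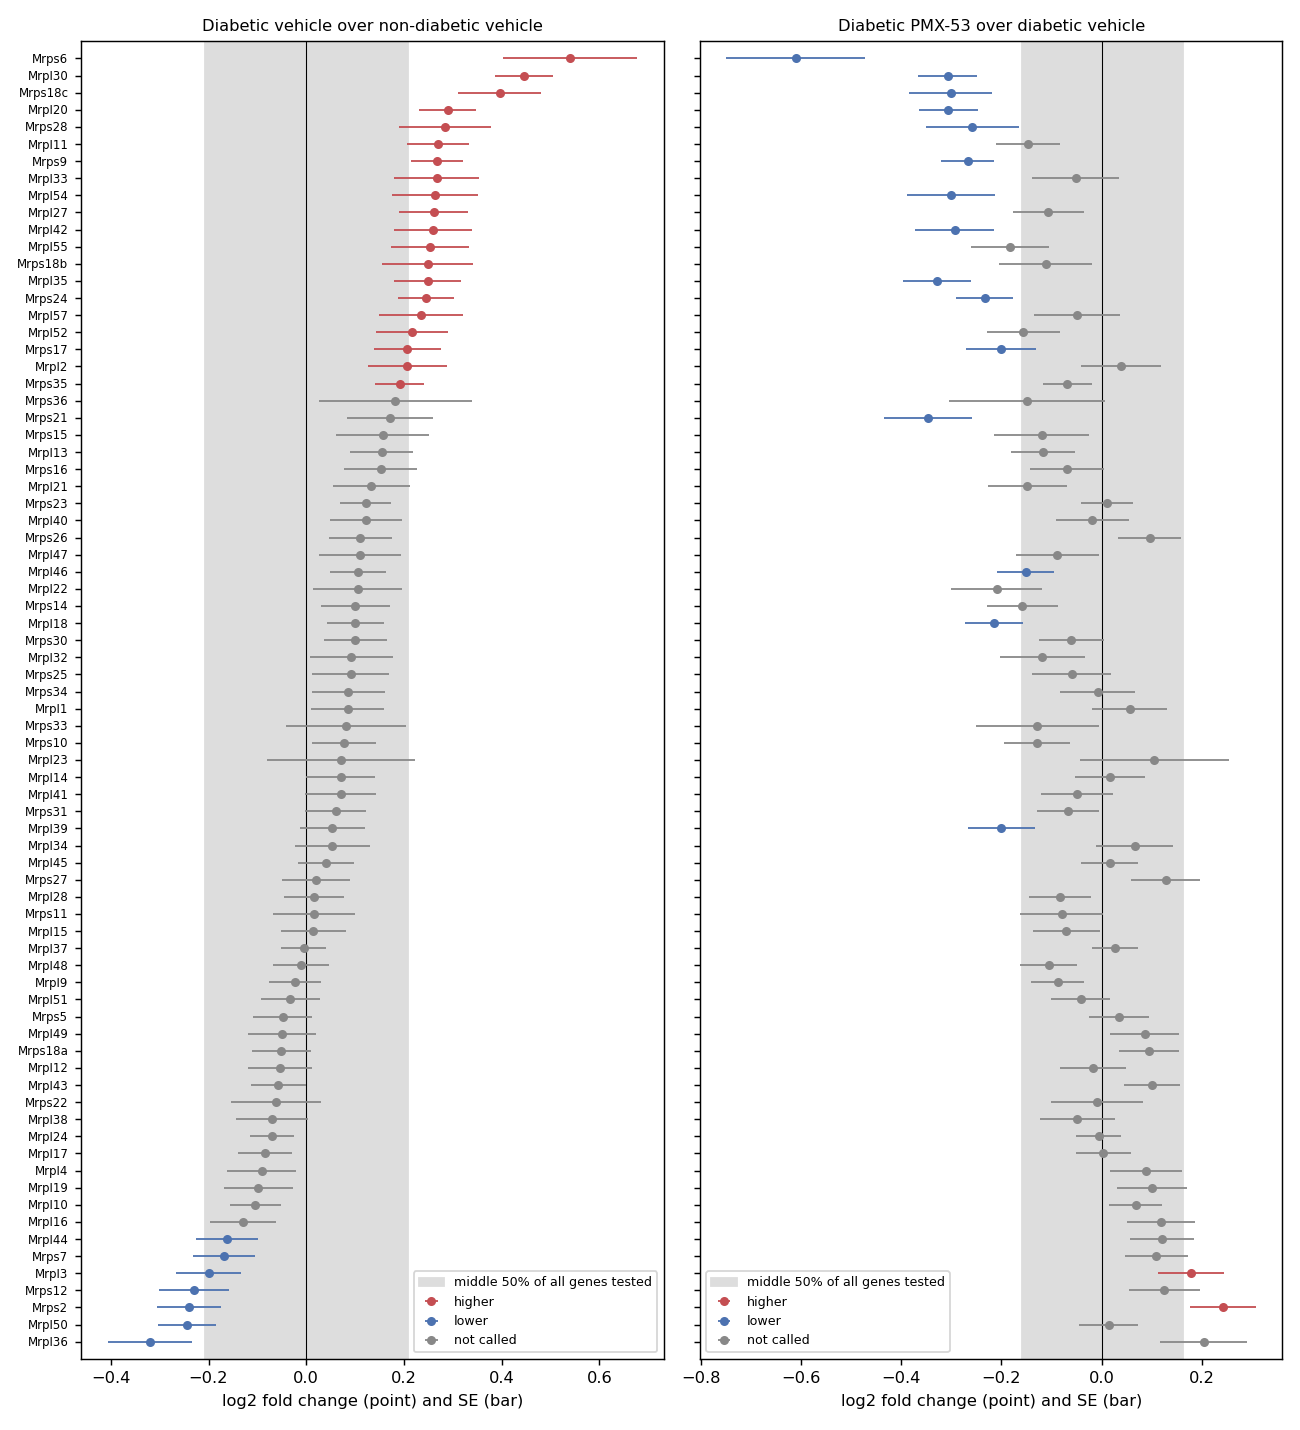
Log2 fold change (point) and its standard error (bar) of the 76 tested genes, ordered by the left panel, for diabetic over non-diabetic mice on vehicle and for PMX-53 over vehicle in diabetic mice (edgeR quasi-likelihood, TMM scaling). The grey band holds the middle 50% of all 15808 genes; 20 genes are called higher and 7 lower on the left, 2 higher and 15 lower on the right, and both splits turn round with scaling by library totals alone.

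By place in the ribosome, no region stood out by its counts. Of 7 genes of the central protuberance, the ridge that contacts transfer RNAs, 2 rose and 0 fell. In the stalk 2 of 4 rose, and around the exit tunnel and its membrane contact 0 rose and 1 fell of 6. Of genes with a bacterial counterpart 15 rose and 5 fell of 48, and of those found only in mitochondria 5 rose and 2 fell of 28. The calls were 20 of 48 (41.7%) and 7 of 28, against 40.3% of all genes. With library totals alone the splits turned to 4 higher and 9 lower and to 0 higher and 2 lower. Mrps30 and Mrps18a, which sit in the large subunit despite their symbols, had log2 fold changes of 0.10 and -0.05, and neither passed the test. Mrps36, better known as a component of the oxoglutarate dehydrogenase complex, was at 0.18 ± 0.16 (adjusted p = 0.370). With these 3 genes placed by position, 12 rose and 4 fell of 49 in the large subunit. In the small subunit 8 rose and 3 fell of 26. The shares called were 32.7% and 42.3%.

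Among the Mrpl and Mrps genes the calls on vehicle were most frequent in the shortest, which was not so over all genes. Of 24 genes whose longest annotated transcript was under 1 kb, 12 rose and 2 fell, with a median log2 fold change of 0.20. All 1344 genes of that length had a median of 0.09, with 23.3% higher and 11.7% lower. Of 28 genes of 1 to 2 kb, 3 rose and 2 fell, with a median of 0.02, and all 3198 genes of that length had a median of 0.02, with 20.9% higher and 16.9% lower. Of 15 genes of 2 to 4 kb, 3 rose and 3 fell, with a median of 0.09, against -0.01 for all genes of that length (20.3% higher and 20.2% lower). Of 9 longer genes, 2 rose and 0 fell, with a median of 0.01, against -0.02 for all (19.6% higher and 23.7% lower). With the length trend of each library removed, 16 genes were called higher and 7 lower.

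**Figure D3:**
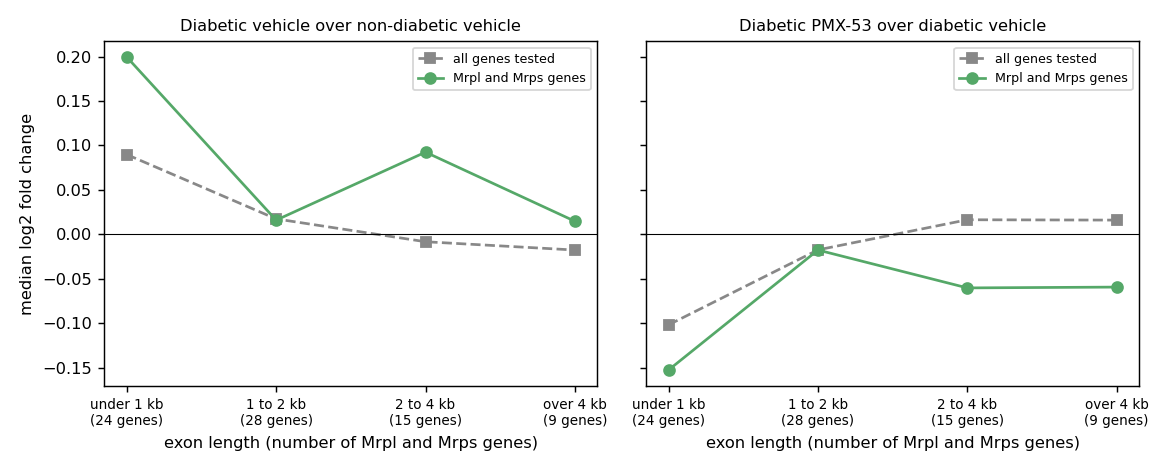
Median log2 fold change by exon length (that of the longest annotated transcript) for the Mrpl and Mrps genes (circles) and all genes tested (squares), TMM scaling. In both comparisons the medians farthest from 0 are those of genes under 1 kb (0.20 and -0.15 for the 24 Mrpl and Mrps genes, 0.09 and -0.10 for all genes); scaling by library totals alone shifts all points of a panel together.

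The second comparison asked what PMX-53 changed in diabetic mice. Of the 76 genes, 17 (22.4%) were called, 2 higher and 15 lower with PMX-53, where 27.3% of all genes were called, 13.9% higher and 13.5% lower. In the large subunit 1 rose and 8 fell of 47, and in the small subunit 1 rose and 7 fell of 29. The median log2 fold change was -0.06, and that of all genes 0.0033. At an unadjusted p under 0.05 there were 23 of 76, and 38.3% of all genes. Of the 24 genes under 1 kb 9 fell and 0 rose, where 19.8% of all genes of that length fell and 7.37% rose. With the length trend of each library removed, 2 of the 76 were called higher and 13 lower. This comparison shares the diabetic vehicle libraries with the first, so opposite signs in the 2 comparisons are not independent. With scaling by library totals alone, 13 were called higher and 4 lower, the median of all genes moved to 0.12, and the share of higher calls among all genes went from 50.7% to 79.5%. Relative to the median of all genes the 76 stood at -0.07 under both scalings, and all 17 calls kept their sign. Here too the near-uniform shift was smaller than any called change, so neither result could well differ.

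Mrps6 fell most, from 25.3, 32.6 and 44.7 CPM to 17.4, 21.3 and 31.2 CPM (-0.61 ± 0.14, adjusted p = 0.00202). Slc5a3, which shares exon bases with it, fell too, from 367 ± 103 to 199 ± 51.0 CPM (-0.88 ± 0.20, adjusted p = 0.00275). Mrps21, a small-subunit protein with a bacterial S21 counterpart, fell from 16.8, 23.5 and 24.3 CPM to 15.2, 17.1 and 22.4 CPM (-0.35 ± 0.09, adjusted p = 0.00448). On vehicle its change with diabetes had been 0.17 ± 0.09, which did not pass the test (adjusted p = 0.120).

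The groups did not overlap for Mrpl20, Mrpl35 and Mrps9, all lower with PMX-53. That is 3 of 76 below and 0 above, where 4.29% and 3.92% of all genes did so (8.2% in either direction). Mrpl20 ran from 20.5 through 22.2 to 23.2 CPM with PMX-53, a log2 fold change of -0.31 ± 0.06 (adjusted p = 0.000342). Mrpl35 ran from 15.1 through 18.1 to 20 CPM (-0.33 ± 0.07, adjusted p = 0.000766), and Mrps9 from 20.3 through 24.8 to 25.7 CPM (-0.27 ± 0.05, adjusted p = 0.000527). Mrpl30 fell to 33.9, 35.0 and 39.8 CPM (-0.31 ± 0.06, adjusted p = 0.000345), with overlap between the groups. The others called lower were Mrps18c, Mrpl54, Mrpl42, Mrps28, Mrps24, Mrpl18, Mrps17, Mrpl39 and Mrpl46, at log2 fold changes between -0.30 and -0.15.

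Both genes that rose with PMX-53 had fallen with diabetes on vehicle. Mrps2 rose to 24.3, 26.5 and 30.1 CPM (0.24 ± 0.07, adjusted p = 0.00718), and Mrpl3 from 20.1, 22.6 and 24.8 CPM to 23.5, 24.98 and 27.5 CPM (0.18 ± 0.07, adjusted p = 0.0447). The groups overlapped for both.

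**Figure D4:**
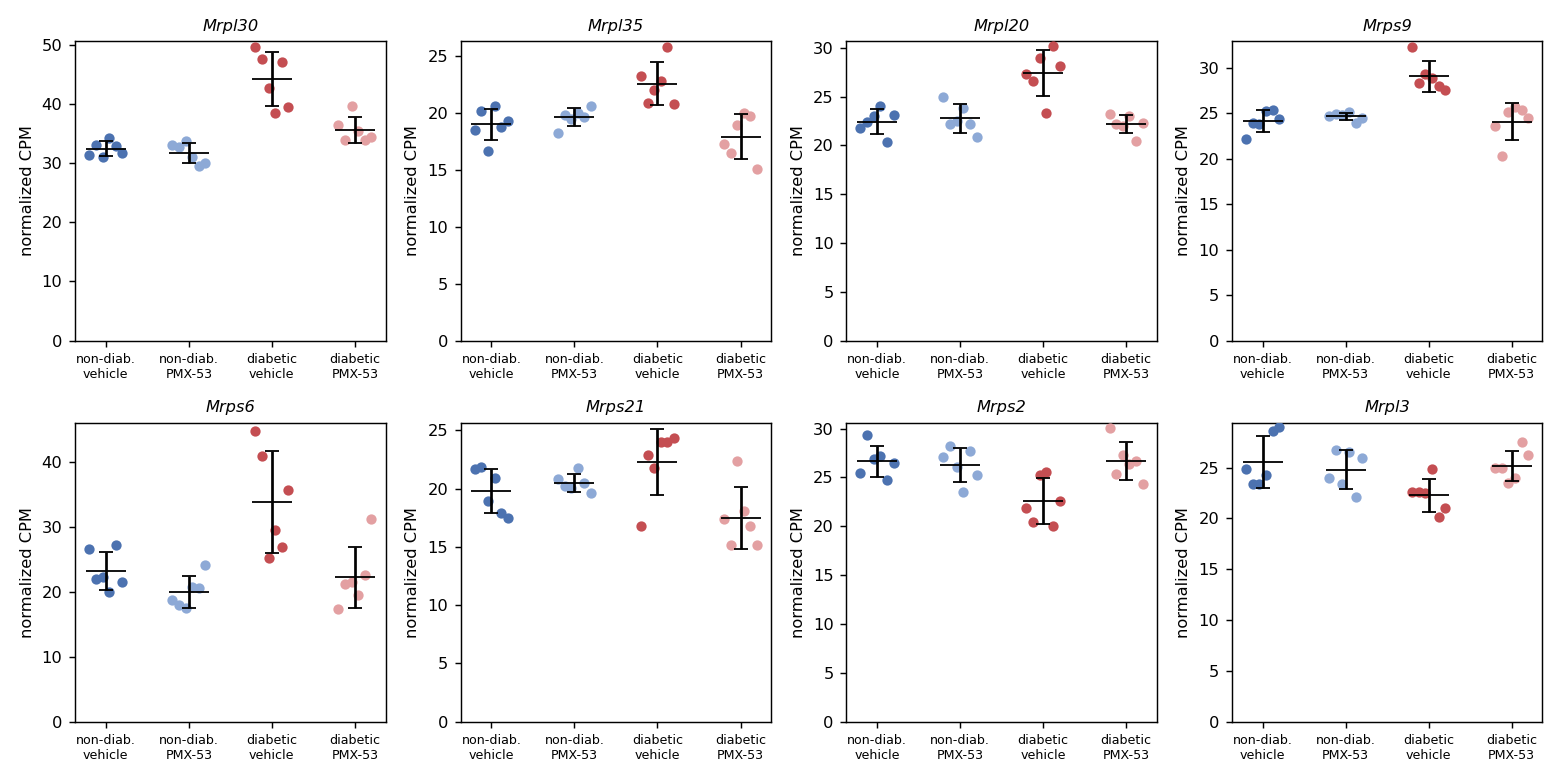
Normalized CPM (TMM scaling, axes from 0) of 8 genes in all 24 libraries by group; points are libraries, and bars are the mean and SD of 6. For Mrpl30 all diabetic vehicle libraries (38.6 to 49.6 CPM) lie above all non-diabetic vehicle libraries (31.0 to 34.4 CPM), while for Mrps2 and Mrpl3 they lie low with overlap.

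In non-diabetic mice PMX-53 gave 0 calls among the 76 genes, and the background was 0% of all genes too. DESeq2 and limma voom also called 0 of the 76. At an unadjusted p under 0.05 there were 2 of 76, and 7.22% of all genes passed that mark. They were Mrpl41 and Mrpl48, named here after their values were seen. The groups overlapped for all 76, and were apart in 0.443% of all genes (0.221% above and 0.221% below). The median log2 fold change of the 76 was 0.01. Mrpl30, for example, ran from 31.0 to 34.4 CPM on vehicle and from 29.6 to 33.8 CPM with PMX-53.

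Between diabetic and non-diabetic mice that both drank PMX-53, a comparison without the diabetic vehicle libraries, 1 of the 76 genes was called, and it was lower with diabetes, where 10% of all genes were called, 5.52% higher and 4.52% lower. This gene was Mrpl22, which lines the exit tunnel, at 7.72, 8.40 and 9.45 CPM in non-diabetic and 5.71, 6.57 and 8.81 CPM in diabetic mice (-0.29 ± 0.09, adjusted p = 0.0413). The call was lost without any 1 of 7 libraries: replicates 2, 3 and 4 of non-diabetic PMX-53 and replicates 2, 4, 5 and 6 of diabetic PMX-53, each of which left 0 calls. Without replicate 1 or 3 of diabetic PMX-53 there were 2 calls. With library totals alone 0 of the 76 were called, and the share of higher calls among all genes went from 54.9% to 65.7%. Mrpl30 did not overlap between these groups either, with diabetic mice higher, but its change of 0.17 ± 0.06 did not pass (adjusted p = 0.0682). Mrpl50 did not overlap, with diabetic mice lower (-0.17 ± 0.06, adjusted p = 0.0630). At an unadjusted p under 0.05 there were 9 of 76, and 24.4% of all genes. Groups were apart in 6% of all genes here, 2.97% above and 3.03% below, and the median log2 fold change of the 76 was -0.01.

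The interaction is the log2 response to PMX-53 of diabetic mice less that of non-diabetic mice. It was called for 7 of the 76 genes (9.21%), where 9.42% of all genes were called, 4.66% positive and 4.76% negative. At an unadjusted p under 0.05 there were 15 of 76, and 24% of all genes. All 7 were negative: Mrpl42 at -0.40 ± 0.11 (adjusted p = 0.0245), Mrps21 at -0.39, Mrpl35 at -0.37, Mrpl20 at -0.33, Mrps9 at -0.30, Mrpl30 at -0.27 and Mrps24 at -0.25. The count fell to 4 without any 1 of 8 libraries. They were replicates 2 and 3 of non-diabetic PMX-53, 6 of non-diabetic vehicle, 2, 5 and 6 of diabetic PMX-53, and 2 and 5 of diabetic vehicle. With scaling by library totals alone 1 gene was called, Mrps2, and it was positive (0.37 ± 0.10, adjusted p = 0.0181). The share of positive calls among all genes went from 49.5% to 79.3%. All 7 genes above stayed negative, since the shift was smaller than their changes. Of these 7, 5 were among the 24 genes under 1 kb. Over all genes of that length 11.3% were called negative and 2.53% positive.

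Other genes of mitochondrial translation and 2 large families were set beside these. Of 86 cytosolic ribosomal protein genes tested, 70 rose and 2 fell with diabetes on vehicle (median log2 fold change 0.29), and 0 rose and 68 fell with PMX-53 in diabetic mice. Of 37 nuclear genes of complex I, the first respiratory complex, 27 rose and 0 fell (median 0.25), and 28 fell with PMX-53. The shares called in these 2 families were 83.7% and 73% on vehicle, against 40.3% of all genes. With PMX-53 they were 79.1% and 75.7%, against 27.3%. Both families kept these directions with library totals alone, at 43 higher and 2 lower and at 15 higher and 0 lower on vehicle. With PMX-53, 35 and 16 were lower. The near-uniform shift of that scaling was smaller than the medians of both families, so their directions could not well turn. Of 5 mitoribosomal proteins with other symbols, Chchd1 (0.39), Aurkaip1 (0.25) and Dap3 (0.19) rose on vehicle, and the same 3 fell with PMX-53 in diabetic mice. With library totals alone 2 rose and 0 fell on vehicle, and 0 passed with PMX-53.

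Of 20 genes listed for the charging of mitochondrial transfer RNAs, 0 rose and 8 fell with diabetes on vehicle, under library totals alone too. The list also holds Gatb, Gatc and Qrsl1, whose enzyme converts an already charged transfer RNA. The share called, 40.0%, was close to the 40.3% of all genes, and of all 20 log2 fold changes 6 were positive and 14 negative. Gatb, a subunit of the enzyme that makes glutaminyl transfer RNA, went from 46.0 to 33.1 CPM in the mean (-0.47 ± 0.06, adjusted p = 9.03e-07), and Ears2, the glutamyl-tRNA synthetase, by -0.45 ± 0.09. With PMX-53 in diabetic mice 6 rose and 0 fell, and this 30% called stood against 27.3% of all genes. Of 15 translation factors 2 rose on vehicle (Slirp and Lrpprc, which bind mitochondrial messenger RNA) and 2 fell (Gfm2 and Mtrf1l, which act in recycling and release). Of 26 genes for assembly of the mitoribosome and modification of its RNA, Mtg1 and Mpv17l2 rose, and Dhx30 and the methyltransferase listed as Ftsj2 fell. The shares called in these 2 lists, 26.7% and 15.4%, were below the 40.3% of all genes. With library totals alone the 2 lists had 1 higher and 5 lower and 0 higher and 7 lower.

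Among 16 regulators of mitochondrial DNA expression and biogenesis, 1 rose and 6 fell with diabetes on vehicle. The share called, 43.8%, was close to the 40.3% of all genes. The coactivator Ppargc1a rose from 89.8 to 140.8 CPM in the mean (0.65 ± 0.08, adjusted p = 4.07e-07). Gabpa, which encodes an ETS factor, fell from 43.6 to 33.8 CPM (-0.37 ± 0.05, adjusted p = 4.80e-07), and Nrf1 fell by 0.18. The others that fell were Pprc1, Polg, Tefm and the helicase gene listed as Peo1. With library totals alone 1 rose and 9 fell. The ribosomal RNAs of the mitoribosome were higher with diabetes on vehicle, mt-Rnr1 by 0.55 (adjusted p = 0.0167) and mt-Rnr2 by 0.47 (adjusted p = 0.000841). The libraries were depleted of ribosomal RNA, so the level of those 2 also reflects what the depletion left.

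**Figure D5:**
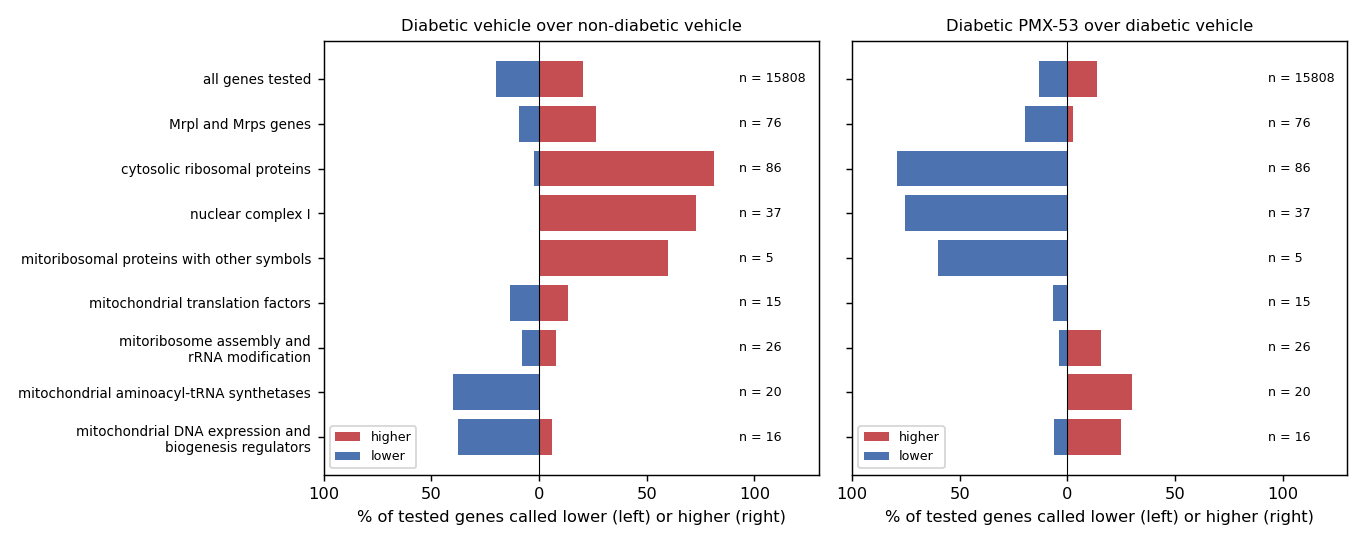
Share of tested genes called higher (right of 0) and lower (left of 0) at an adjusted p under 0.05 in each list, with the number tested, for the 2 comparisons that involve diabetic vehicle mice (edgeR quasi-likelihood, TMM scaling). Of 76 Mrpl and Mrps genes 20 are higher and 7 lower on the left, against 70 and 2 of 86 cytosolic ribosomal protein genes; with scaling by library totals alone the former turns to 4 and 11 and the latter becomes 43 and 2.

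Markers of other cells moved in the same comparison. With diabetes on vehicle, where 40.3% of all genes were called, the collecting duct's principal cell markers all rose (6 of 6). So did 4 of 5 distal convoluted and connecting tubule and 4 of 6 intercalated cell markers. Of 9 proximal tubule markers 4 rose and 4 fell, and 0 of 5 podocyte markers were called. Of 5 thick ascending limb markers 2 rose and 1 fell, and of 5 cell cycle markers 3 rose. Of 5 stromal markers 2 fell, and of 5 macrophage markers 1 fell. All 4 red blood cell markers fell, as did 4 of 6 endothelial and 2 of 3 tested B and plasma cell markers. The summed red blood cell markers ran from 250 to 496 CPM in non-diabetic and from 93.3 to 319 CPM in diabetic vehicle libraries. With PMX-53 in diabetic mice, where 27.3% of all genes were called, all 4 of these rose. So did 4 of 5 podocyte, 4 of 6 endothelial, 4 of 5 stromal and all 3 tested B and plasma cell markers. Of 6 principal cell markers 2 fell and 0 rose. Of 9 proximal tubule markers 3 rose and 2 fell. Their sum was 19778 ± 1245 CPM in diabetic vehicle and 17992 ± 2140 CPM in diabetic PMX-53 libraries (SD, n = 6). Adipocyte markers summed to at most 0.479 CPM in any library. The part of other cell types in the results above was not tested.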

How the data were processed

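The authors deposited a table of read counts per gene, given as whole numbers without normalization, per the file headers. The submitters' processing notes name bcl2fastq 2.20.0.422, STAR and GRCm38, and the sources used here do not give the annotation or the counting settings. Libraries were made from 200 ng of RNA depleted of ribosomal RNA with a directional kit, per the labels' protocols. All 24 libraries were fitted in 1 edgeR 4.0.16 model (robust quasi-likelihood, TMM, default filter) in R 4.3.3, with 1 coefficient per group, and p-values were adjusted by Benjamini-Hochberg over 15808 genes, threshold 0.05. DESeq2 1.42.0 and limma 3.58.1 served as alternatives. The standard error is the size of the log2 fold change divided by the square root of F. Lengths, positions and overlaps came from GENCODE M21, in which 48058 of 48526 table IDs were found, and promoters from RefSeq. Library properties were compared by exact permutation. Counting limits precision, since 1 CPM is 11 to 22 counts. The fit was tested on simulated data with 1 spread set for all genes. It recovered 8% of genes changed 1.25-fold, 56% at 1.5-fold, 88% at 2-fold and 96% at 3-fold. Only 50 genes were changed at each fold there, whereas 40.3% of all genes were called with diabetes on vehicle. In the real data a log2 fold change as small as that of Mrpl44, -0.16, was called. The simulated shares therefore do not carry over to the 76 genes. Lack of a call still does not show that a small change was absent. The genes and lists were chosen with earlier results of these data known. Genes were named by rule: up to 6 per subunit with the largest called change in each comparison, calls against the majority, up to 6 interaction calls, the 4 highest and 4 lowest per kilobase, those untested, those whose place differs from their symbol, and up to 4 genes of each other list by p. Others were named to complete counts, after their values were seen.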

Additional observations from a re-analysis of the deposited data

Results flagged for a closer look

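For 7 genes the response to PMX-53 differed between diabetic and non-diabetic mice by the interaction test (edgeR quasi-likelihood, adjusted p under 0.05). The differences, diabetic minus non-diabetic on the log2 scale, were -0.33 for Mrpl20, -0.27 for Mrpl30, -0.37 for Mrpl35, -0.40 for Mrpl42, -0.39 for Mrps21, -0.25 for Mrps24 and -0.30 for Mrps9. The share called, 9.21% of 76 genes, was close to the 9.42% of all genes, and 0 of these 7 passed with scaling by library totals alone. The 7 differences rest on the diabetic vehicle libraries, which stood apart at Nnt, and a trait of those mice cannot be told apart from the response to PMX-53.

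Single libraries lay far from the other 5 of their group in 7 of 140 groups looked at, and chance gives about 1 in 20. Mrpl36 was at 13.01 CPM in replicate 4 of diabetic vehicle, where the next library had 9.71. Mrps21 was at 16.8 CPM in replicate 1 of diabetic vehicle, below 21.8. Mrps6 was at 31.2 CPM in replicate 6 of diabetic PMX-53, above 22.5, and Mrpl11 in the same library at 13.2 CPM, below 16.5. Mrpl12 was at 73.4 CPM in replicate 5 of non-diabetic vehicle, below 86.1, and Mrpl23 at 3.51 CPM in replicate 4 of that group, above 2.42. Mrps18c was at 7.99 CPM in replicate 3 of non-diabetic PMX-53, above 6.93.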

How the results depend on the processing

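Scaling mattered most. With library totals alone, 15 genes were called with diabetes on vehicle, 0 with diabetes on PMX-53 and 1 in the interaction, and the medians were -0.0085 with diabetes on vehicle, 0.052 with PMX-53 in diabetic mice and 0.038 in the interaction. The summed levels of diabetic vehicle libraries were then 1063 CPM (large) and 526.5 CPM (small). Of all 52 calls over 5 comparisons, 52 kept their sign and 17 passed the test. The shift was smaller than each called change, so the signs could not well turn. With mitochondrially encoded and ribosomal RNA genes removed, 20 genes were called higher and 7 lower with diabetes on vehicle. With PMX-53 in diabetic mice 2 were higher and 14 lower. Size factors of DESeq2 gave 20 and 7, and 2 and 15, and upper quartile scaling gave 20 and 7, and 2 and 13. Interaction calls were 6, 7 and 5 in that order, 1 of the last positive. In these runs the median of all genes stayed near 0, as with TMM. Where the genes were removed, sums rose with the smaller totals. In the order non-diabetic vehicle, non-diabetic PMX-53, diabetic vehicle and diabetic PMX-53, the large sums were 1530.03, 1550.43, 1569 and 1517 CPM, and the small sums were 726, 727, 777 and 737 CPM.

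The 1 call with diabetes on PMX-53 became 0 with no filter or after thinning to the smallest library, 5 by limma voom, 3 with only the groups compared in the fit and 2 with the length trend removed. The 7 interaction calls became 4 after thinning and 4 with the length trend removed. Leaving out each library in turn gave 22 to 28 calls with diabetes on vehicle, 13 to 19 with PMX-53 in diabetic mice, 0 with PMX-53 in non-diabetic mice, 0 to 2 with diabetes on PMX-53 and 4 to 9 in the interaction. Of 42 calls of genes named by the rule, 0 changed direction under any alternative run. With library totals alone 25 were lost, 8 with the length trend removed, and 7 each with no filter or after thinning. Upper quartile scaling and a fit of only the groups compared each lost 4. DESeq2, limma voom and removal of the GC trend lost 0. The rule mostly picks large changes, which pass most readily. Over all 76 genes, DESeq2 gave 20 higher and 7 lower with diabetes on vehicle and 2 and 14 with PMX-53 in diabetic mice. Limma voom gave 19 and 7, and 3 and 12. Over all genes, limma voom called 2626 rather than 1587 with diabetes on PMX-53 and 2281 rather than 1489 in the interaction. Over genes with no exon overlap, a setting chosen after seeing the data, 14 rose and 3 fell of 45 with diabetes on vehicle.

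Replicate numbers did not pair the samples: the correlation of same-numbered libraries' deviations ran from -0.111 to 0.127. With the replicate block, the counts were 27, 15, 0, 1 and 5 in the order above.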
